A study of Mus musculus with 6 samples.

Results

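The 33 genes described here encode the enzymes and transporters of glycolysis, of the exits to lactate and the mitochondrion and of the pentose phosphate pathway, with 4 genes of the hypoxia response. They were chosen by gene symbol, matched through the GENCODE M21 annotation, and all 33 were found among the 35598 genes of each table. Glycolysis splits glucose into pyruvate in the cytosol and yields ATP without oxygen, and lactate dehydrogenase then regenerates the cofactor that the pathway uses up. The pentose phosphate pathway branches off after the first step and supplies NADPH, which phagocytes spend on oxidant production and on antioxidant defence. Hypoxia-inducible factor (HIF) binds short DNA elements near many glycolytic genes when prolyl hydroxylases lack oxygen, and macrophages are known to shift towards glycolysis when they are activated.

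The cells were central nervous system-associated macrophages (CAMs), which sit in the perivascular spaces, the meninges and the choroid plexus. CD3-CD11b+CD45+CD206+ cells were sorted from brains of male C57BL/6 mice (Janvier Labs) that were 2 months old (young) or 18 months old (aged), with 3 libraries per age. The labels name no genotype change and no treatment in either group, and a gate on whole brain does not separate the 3 locations. About 500 pg of total RNA per library was copied with a low-input template-switching kit, amplified over 13 PCR cycles, tagmented and read as single reads of 100 cycles. Whether each library stands for its own animal is not stated in the labels. P-values here therefore measure the spread among libraries alone, and that spread may be technical. The question addressed was how these transcripts differ between sorted CAMs of the 2 ages.

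Each library held 26605077 to 33306093 counts and 9875 to 12543 genes with at least 5 counts. All 12 border macrophage markers, Mrc1 (CD206), Cd163 and Lyve1 among them, were detected in every library, as the label of the cells requires. Their summed level was 24191 to 27750 CPM (counts scaled to library size by TMM) in the young libraries and 8298 to 16669 CPM in the aged ones. Pf4 (11505 to 13874 CPM young, 2166 to 6794 aged) and Ms4a7 (5344 to 5776 young, 1333 to 4071 aged) were the highest of the 12 in every library. Mrc1, Lyve1, Dab2 and Clec10a were also lower in every aged library. Cd163, Folr2, Cbr2, Stab1, F13a1 and Cd209f overlapped between the ages. The summed level of 12 microglia markers was 5833 to 8393 CPM in the young and 11084 to 18432 CPM in the aged libraries, with none at 0. Markers of 10 other cell types were also checked. Summed neutrophil markers were 8049 to 37866 CPM in 5 libraries and 25.8 CPM in aged replicate 3, and summed erythroid markers were 9096 to 30477 CPM in 5 libraries and 153 CPM in aged replicate 3. Choroid plexus epithelium markers summed to 564 to 1361 CPM in 4 libraries, 11818 CPM in young replicate 3 and 7991 CPM in aged replicate 3. In bulk samples such as these, fewer cells of a type and less RNA per cell cannot be told apart.

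Of the 33 genes, 5 had every aged library above every young one, namely Eno1, Gapdh, Pfkl, Taldo1 and Bnip3. Their proximal promoters are shown because these 5 genes separated the ages, and that of Ldha is shown for comparison, since HIF sites near the start of Ldha are a textbook case. The sequences are from RefSeq (GRCm38.p6), end before the start site and lie outside annotated exons: Eno1 chr4:150236458-150236707 (plus strand), Gapdh chr6:125165774-125166023 (minus), Pfkl chr10:78009808-78010004 (minus), Taldo1 chr7:141391910-141392159 (plus), Bnip3 chr7:138909520-138909756 (minus) and Ldha chr7:46845554-46845803 (plus). Those of Gapdh, Pfkl and Ldha lie within the GENCODE span of the gene, since a longer transcript starts further upstream. Capitals mark the HIF core letters ACGTG or GCGTG on either strand (CACGT or CACGC when read on the other strand). CACGTG, an E-box that other factors also bind, contains ACGTG on both strands and is counted as 1 site.
Eno1: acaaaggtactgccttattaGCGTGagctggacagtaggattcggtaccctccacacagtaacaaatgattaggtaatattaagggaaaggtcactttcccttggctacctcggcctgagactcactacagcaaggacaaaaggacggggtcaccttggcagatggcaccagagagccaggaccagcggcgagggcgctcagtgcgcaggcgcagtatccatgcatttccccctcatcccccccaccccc
Gapdh: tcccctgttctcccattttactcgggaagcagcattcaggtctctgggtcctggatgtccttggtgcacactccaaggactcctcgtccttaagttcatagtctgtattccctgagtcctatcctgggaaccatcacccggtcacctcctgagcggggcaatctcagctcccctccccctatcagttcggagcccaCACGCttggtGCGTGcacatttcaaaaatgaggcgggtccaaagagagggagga
Pfkl: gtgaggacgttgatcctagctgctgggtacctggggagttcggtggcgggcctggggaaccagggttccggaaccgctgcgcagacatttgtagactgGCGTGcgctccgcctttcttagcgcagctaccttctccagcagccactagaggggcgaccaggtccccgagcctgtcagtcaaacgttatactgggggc
Taldo1: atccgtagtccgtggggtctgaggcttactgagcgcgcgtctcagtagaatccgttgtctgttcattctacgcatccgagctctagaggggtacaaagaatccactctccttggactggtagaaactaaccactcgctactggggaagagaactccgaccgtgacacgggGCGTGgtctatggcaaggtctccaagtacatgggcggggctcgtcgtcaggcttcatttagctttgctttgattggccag
Bnip3: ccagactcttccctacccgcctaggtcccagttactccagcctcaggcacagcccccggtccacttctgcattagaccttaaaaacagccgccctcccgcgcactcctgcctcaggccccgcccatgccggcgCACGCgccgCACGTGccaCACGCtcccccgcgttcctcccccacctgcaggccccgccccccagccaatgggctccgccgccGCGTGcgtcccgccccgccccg
Ldha: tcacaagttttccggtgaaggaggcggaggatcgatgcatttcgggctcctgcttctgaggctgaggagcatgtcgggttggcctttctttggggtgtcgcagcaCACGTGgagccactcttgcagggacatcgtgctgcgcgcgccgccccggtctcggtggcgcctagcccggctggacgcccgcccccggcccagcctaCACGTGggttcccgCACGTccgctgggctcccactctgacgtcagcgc
These windows held 1 match in Eno1, 2 in Gapdh, 1 in Pfkl, 1 in Taldo1, 4 in Bnip3 (1 of them an E-box) and 3 in Ldha (2 of them E-boxes). Over 250 bases before the start site, 26 of the 32 members with a RefSeq promoter held at least 1 match (81.2%), against 56.9% of the 8199 tested genes with a promoter and 38.6% of all 27025 promoters. An E-box was found in 5 of the 32 members (15.6%), against 8.51% of tested genes. A match describes the letters only, and binding was not measured. HIF elements are known near many glycolytic genes, so the share among the members carries no information on age. Every core also contains CG, and the compared promoters were not matched for CG content.

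No member passed the test of aged against young libraries. In edgeR's quasi-likelihood test with Benjamini-Hochberg adjustment over 10661 genes, 1 gene was called higher in aged libraries (0.00938%) and 0 lower (0%), and that gene was not a member. Of the 33 members, 32 passed the filter on low counts and were tested, and Rpia was not. At an unadjusted p under 0.05, 2 members were higher in aged libraries (Eno1 and Pfkl) and 0 were lower, against 3.63% of all tested genes higher. The DESeq2 Wald test, which called 2.19% of its genes higher, called these 2 members. edgeR with no low-count filter (0.225% called higher) and edgeR restricted to a mean from 50 CPM upward (2189 genes, 0.868% called higher) each called Eno1 alone among the members. limma-voom and limma on log2(TPM + 1) called 0 members, and no member was called lower by any of these tools.

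Most fitted values of the members nevertheless lay on the side of the aged libraries. The log2 fold change (aged minus young) was above 0 for 26 of the 32 tested members and below 0 for 6, with a median of 0.66. With 1 library left out at a time, 24 of 32 (without aged replicate 2) to 29 of 33 members (without young replicate 1, where Rpia was also tested) lay above 0. Over all tested genes, 49.3% lay above 0 and the median was -0.02. All 11 members that averaged 50 CPM or more lay above 0, with a median of 0.89, where 47.2% of all genes at that level did and the median was -0.05. Every aged library was above every young one for 5 of the 32 members, against 7.54% of all tested genes, and the opposite held for 0 members, against 7.19%. Among the 11 members that averaged 50 CPM or more, 4 had no overlap in that direction, against 11.2% of genes at that level. The cut used the mean over libraries of both ages. Eno1, Gpi1, Pgk1 and Bnip3 averaged 49.5, 35.7, 48.9 and 44.8 CPM in the young libraries, so they passed it only through the aged ones. This is a description of a list chosen with results of these data known, and no test was made on the list.

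**Figure D1:**
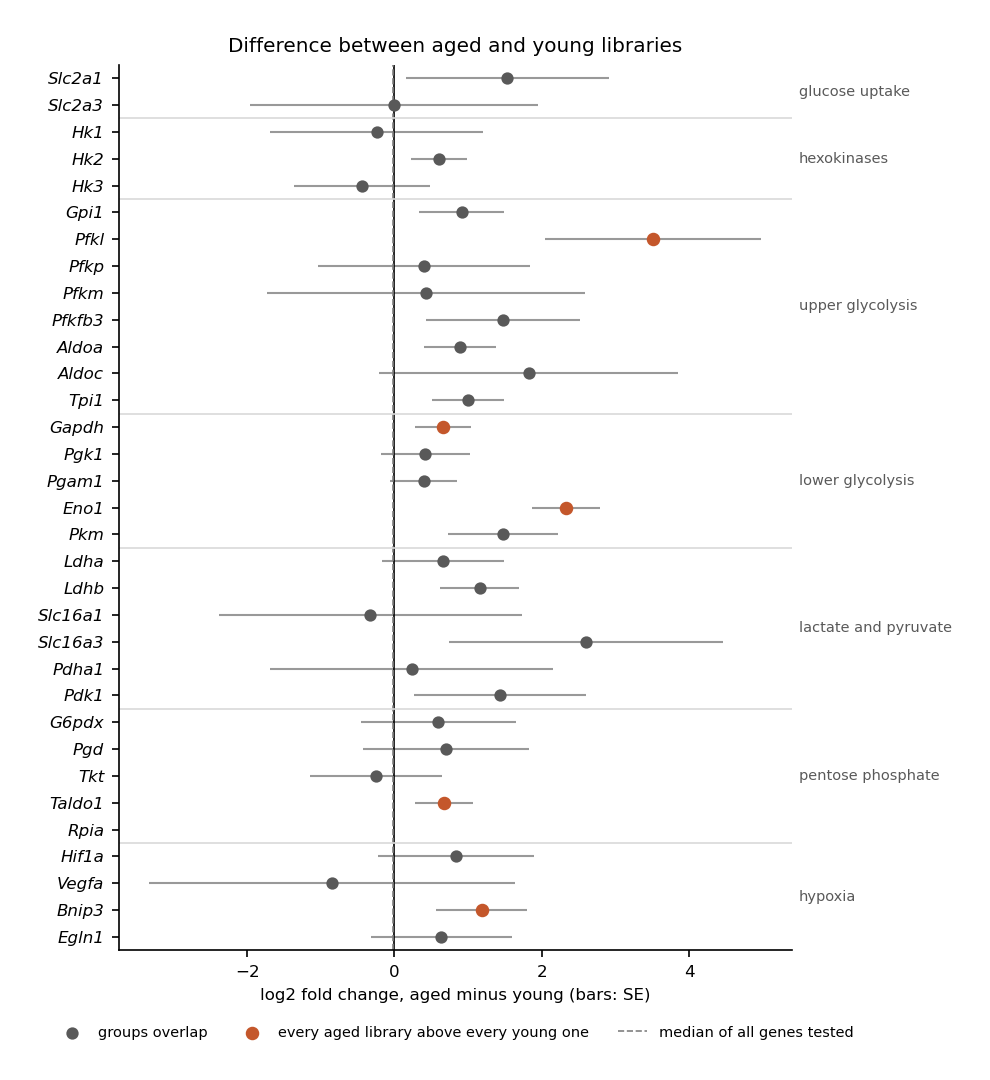
Log2 fold change of each member, aged minus young (x axis), with bars of 1 standard error from the edgeR fit, grouped by step. Orange points are the 5 members for which every aged library was above every young one, and most points lie to the right of 0 with bars that are long for weakly expressed members; Rpia was not tested.

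The precision differed widely between members. The standard error (SE) of a member's log2 fold change ran from 0.38 (Gapdh and Hk2) to 2.48 (Vegfa) and was over 1 for 16 of the 32. Over all tested genes, the median SE was 1.65 below a mean of 50 CPM and 0.46 from 50 CPM upward. A total of 6 members had 3 counts or fewer in at least 1 library, a floor that corresponds to 0.0777 to 0.112 CPM and covers counting error only.

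**Figure D2:**
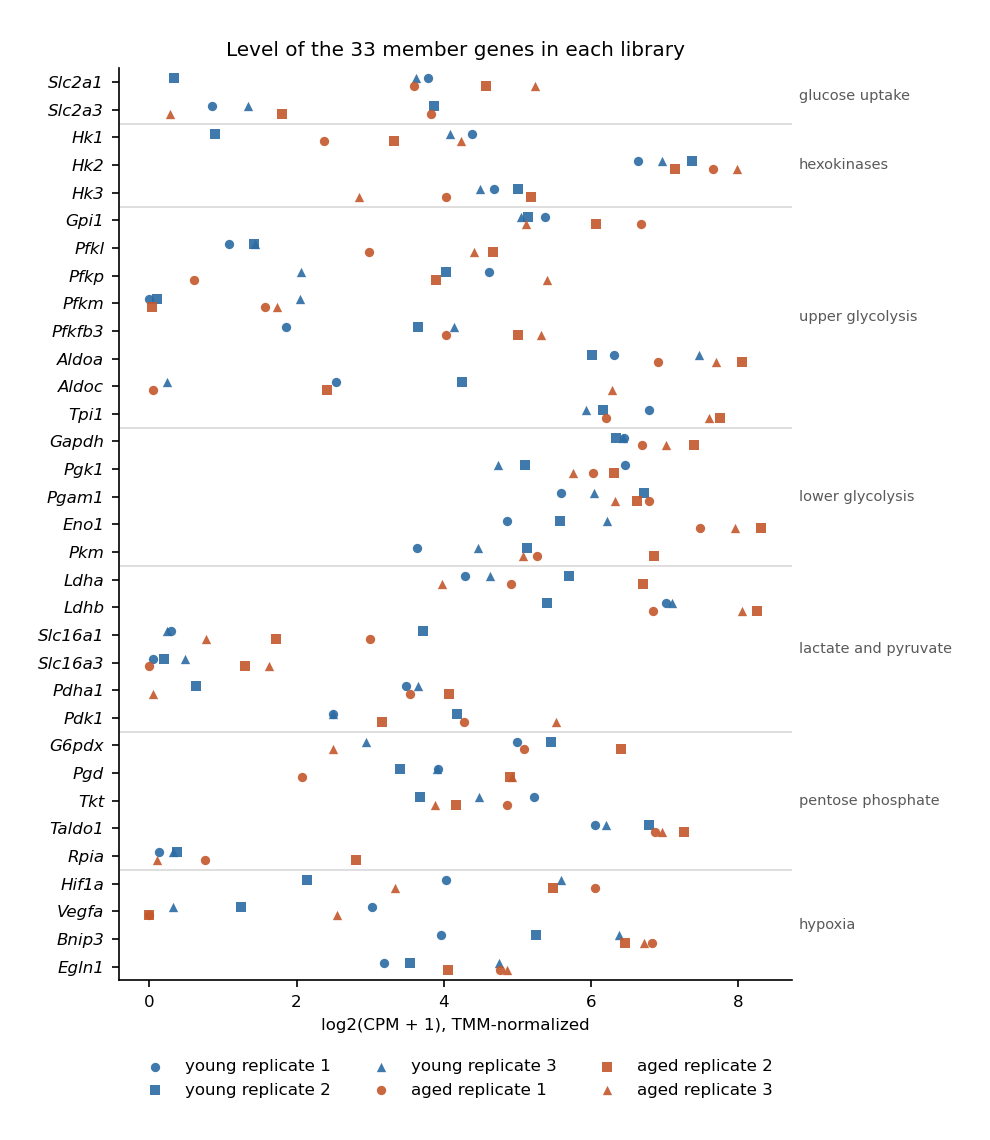
Level of each member in each library, as log2(CPM + 1), grouped by step. Blue symbols are the 3 young and orange symbols the 3 aged libraries, with a shape for each replicate number; the orange symbols lie to the right of all blue ones for Eno1, Pfkl, Gapdh, Taldo1 and Bnip3.

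Glucose enters through the facilitative transporters GLUT1 (Slc2a1) and GLUT3 (Slc2a3). Slc2a1 was at 12.8, 0.261 and 11.4 CPM at 2 months and at 11.0, 22.9 and 36.9 CPM at 18 months, a log2 fold change of 1.53 (SE 1.38, edgeR adjusted p = 0.993). The groups overlapped, and young replicate 2 was the lowest. Slc2a3 was highest in that same library (13.6 CPM) and in aged replicate 1 (13.2 CPM), and lay between 0.212 and 2.49 CPM in the other 4. Summed over both transporters, the level was 12.9 to 13.8 CPM at 2 months and 24.2 to 37.1 CPM at 18 months, although neither gene separated the ages.

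The hexokinases trap glucose in the cell as glucose 6-phosphate. Hk2, the inducible form, was at 98.9, 166 and 125 CPM at 2 months and at 201, 140 and 253 CPM at 18 months. Its log2 fold change was 0.61 (SE 0.38, edgeR adjusted p = 0.950), and aged replicate 2 lay among the young values. Hk1, the housekeeping form, was at 0.856 to 19.9 CPM at 2 months and at 4.17 to 17.9 CPM at 18 months (log2 fold change -0.24, SE 1.44, or -0.89 without aged replicate 3). Hk3, typical of myeloid cells, was at 21.6 to 31.3 CPM at 2 months and at 6.19 to 35.5 CPM at 18 months. Its log2 fold change was -0.44 (SE 0.92), or -1.26 without aged replicate 2 and -0.02 without aged replicate 3. Of the summed hexokinase TPM (transcript abundance scaled for depth and length), Hk2 took 40.0%, 44.4% and 89.9% in the young libraries and 91.2%, 68.6% and 78.3% in the aged ones. The summed level of the 3 genes was 144, 198 and 162 CPM at 2 months and 220, 185 and 277 CPM at 18 months, which overlapped. The shares overlapped too, and the gene length that the deposited tables assign to Hk2 ran from 1396 to 5513 bases between libraries. Without TPM, as CPM per kilobase of fixed length, the Hk2 share was 71.4% ± 6.04 in young and 82.8% ± 12.4 in aged libraries (SD, n = 3).

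The upper part of glycolysis turns glucose 6-phosphate into triose phosphates, with phosphofructokinase as its main control point. All 8 members of this step had fitted values above 0, with a median of 0.96, and 1 had no overlap. Their summed level was 261, 216 and 294 CPM at 2 months and 318, 621 and 615 CPM at 18 months.

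Pfkl, the liver-type subunit of phosphofructokinase, lies on chr10:77986947-78010083 (mm10, as all coordinates here). It was at 1.12, 1.68 and 1.72 CPM at 2 months and at 6.91, 24.5 and 20.2 CPM at 18 months. The lowest aged library was thus above the highest young one, with 35 to 48 counts per young and 199 to 945 counts per aged library. The log2 fold change was 3.51 (SE 1.47), an 11.4-fold difference in edgeR's fit with an unadjusted p of 0.0391 and an adjusted p of 0.841, and the DESeq2 Wald test gave an adjusted p of 0.000773. On the log2(TPM + 1) scale, which understates the change of weakly expressed genes, the difference was 1.65 (limma adjusted p = 0.586).

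The other phosphofructokinase subunits did not separate the ages. Pfkp, the platelet-type subunit, ranged from 3.18 to 23.5 CPM in young and from 0.521 to 41.2 CPM in aged libraries. Pfkm, the muscle-type subunit, stayed at or below 3.15 CPM in every library. Its gene body overlaps that of Senp1 on the opposite strand, which was at a higher mean (6.61 against 1.26 CPM), and how many reads they share was not measured. Pfkl took 5.90%, 8.36% and 25.8% of the summed phosphofructokinase TPM in the young libraries and 69.6%, 54.3% and 27.2% in the aged ones. The lowest aged share was just above the highest young one. As CPM per kilobase of fixed length the shares were 14.8% ± 5.25 and 61.5% ± 16.7 (SD, n = 3).

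Aldoa, the aldolase with the highest TPM, was at 78.8, 64.0 and 176 CPM at 2 months and at 120, 265 and 207 CPM at 18 months. Its log2 fold change was 0.89 (SE 0.49, edgeR adjusted p = 0.929), and young replicate 3 lay above aged replicate 1. Aldoc, the brain-type aldolase, reached 77.0 CPM in aged replicate 3 and was at or below 18.1 CPM in the other libraries. Summed astrocyte markers were also highest in that library, at 385 CPM against 76.6 to 146 CPM in the other 5. The next highest Aldoc value, 18.1 CPM in young replicate 2, came with the lowest astrocyte sum (76.6 CPM). The part of these markers in the Aldoc values was not tested. Without aged replicate 3 the log2 fold change of Aldoc turned from 1.82 to -1.80.

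The other 3 members of the step had aged means above their young means, with overlapping groups. Tpi1, which interconverts the triose phosphates, averaged 80.4 ± 26.2 CPM at 2 months and 161 ± 77.4 CPM at 18 months (SD, n = 3, log2 fold change 1.00, SE 0.49). Gpi1, the isomerase that follows the hexokinases, averaged 35.7 ± 4.20 and 67.2 ± 33.9 CPM (0.91, SE 0.58). Pfkfb3, which makes the activator fructose 2,6-bisphosphate, averaged 10.3 ± 7.08 and 28.6 ± 12.2 CPM (1.48, SE 1.04).

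The lower part of glycolysis carries the ATP-yielding reactions to pyruvate. All 5 members had fitted values above 0, with a median of 0.66, and 2 had no overlap (Gapdh and Eno1). Their summed level was 261, 300 and 271 CPM at 2 months and 493, 778 and 542 CPM at 18 months.

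Eno1, the enolase that makes phosphoenolpyruvate, lies on chr4:150236721-150248879. It was at 28.1, 47.0 and 73.5 CPM at 2 months and at 178, 319 and 247 CPM at 18 months. The lowest aged library was well above the highest young one, and the averages were 49.5 ± 22.8 and 248 ± 70.1 CPM (SD, n = 3). The log2 fold change was 2.32 (SE 0.46), a 5.01-fold difference with an unadjusted p of 0.000593, the 15th smallest of 10661, and an adjusted p of 0.378 in edgeR's quasi-likelihood test. Its adjusted p was 0.0237 in the DESeq2 Wald test, 0.00148 in edgeR with no low-count filter and 0.0140 in edgeR from a mean of 50 CPM, and ran up to 0.811 over the alternatives. The fitted value stayed between 2.04 and 2.93 in all of them.

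Reads of Eno1 cannot be fully separated from those of Eno1b, a near copy at another locus. The 2 transcripts were 99.5% identical over 1736 aligned bases with 9 mismatches, and 69% of the 1637 windows of 100 bases, the length of a read, held no difference. Eno1b held 24% as many counts as Eno1. It was at 4.71, 13.9 and 18.6 CPM at 2 months and at 41.6, 71.9 and 65.7 CPM at 18 months, so it followed Eno1 in every library, at 14.4% to 22.8% of the sum. With both summed before the fit, the log2 fold change was 2.31 (SE 0.46), a 4.97-fold difference with an edgeR adjusted p of 0.378.

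**Figure D3:**
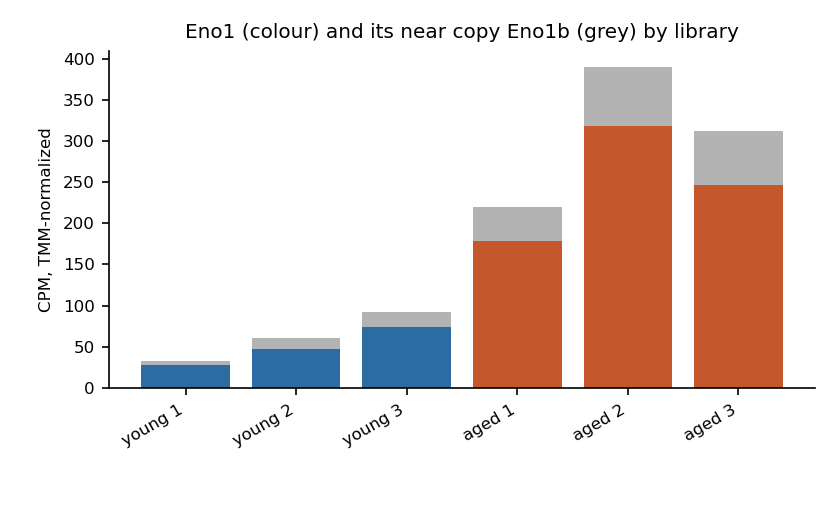
Level of Eno1 (colour) with its near copy Eno1b stacked on top (grey), in CPM, for each library. The sums were 32.8 to 92.2 CPM in the 3 young libraries (blue) and 220 to 390 CPM in the 3 aged libraries (orange).

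Gapdh, the NADH-yielding dehydrogenase of glycolysis and a frequent reference gene in PCR, lies on chr6:125161715-125166467. It was at 86.9, 80.5 and 85.9 CPM at 2 months and at 103, 168 and 129 CPM at 18 months. The young values lay close together (84.5 ± 3.42 CPM) and the aged ones above and further apart (133 ± 32.8 CPM). The log2 fold change was 0.66 (SE 0.38, edgeR adjusted p = 0.936), so the difference did not pass. A total of 6 near copies of Gapdh held 5.11% as many counts as Gapdh itself.

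The remaining members of the step overlapped between the ages. Pkm, pyruvate kinase of non-liver tissues, was at 11.5, 34.2 and 21.1 CPM at 2 months and at 37.6, 115 and 32.9 CPM at 18 months (log2 fold change 1.47, SE 0.74, edgeR adjusted p = 0.913). Without aged replicate 2 this value was 0.67. Pgk1, a phosphoglycerate kinase, had a log2 fold change of 0.42 (SE 0.60). It was 1.15 without young replicate 1 and 0.12 without young replicate 3. Pgam1, a phosphoglycerate mutase, had a log2 fold change of 0.40 (SE 0.45).

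Lactate dehydrogenase interconverts pyruvate and lactate, with subunit A favoured in glycolytic tissue and subunit B in oxidative tissue. Ldhb had the highest mean TPM of all members at both ages, 85.7 over the young and 182 over the aged libraries. Gapdh was nevertheless above it in young replicate 2 and in aged replicate 1, and Taldo1 and Pgam1 were above it in young replicate 2. Gapdh averaged 72.5 and 125 TPM, Taldo1 44.5 and 76.7 TPM, and Aldoa 34.1 and 82.4 TPM. Eno1 averaged 12.5 TPM over the young libraries, below Ldhb, Gapdh, Taldo1 and Aldoa. It averaged 109 TPM over the aged ones, where Ldhb and Gapdh alone had a higher mean. The gene length assigned to Eno1 was 1862, 1746 and 1871 bases in the young libraries and 1525, 1323 and 1463 in the aged ones. TPM divides by this length, and the TPM means of Eno1 differed more between the ages than its CPM means (49.5 and 248). The length assigned to Ldhb was 651 to 923 bases. By mean CPM, Hk2 (130) and Aldoa (106) were above Ldhb (103) at 2 months, and Eno1 was above Ldhb (229) at 18 months. Ldhb was at 129, 41.4 and 137 CPM at 2 months and at 114, 306 and 266 CPM at 18 months, and aged replicate 1 lay below 2 of the young values. Its log2 fold change was 1.16 (SE 0.54, edgeR adjusted p = 0.892). Ldha averaged 31.1 ± 17.6 CPM at 2 months and 49.2 ± 47.6 CPM at 18 months (SD, n = 3). Its fitted value of 0.66 (SE 0.83) rested on aged replicate 2 and was -0.49 without it.

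Ldhb took 94.5%, 64.3% and 94.8% of the summed lactate dehydrogenase TPM in the young libraries and 90.1%, 85.0% and 97.4% in the aged ones. The B subunit was thus the larger transcript pool in all 6 libraries per length, and its share overlapped between the ages. By counts, which are not scaled for length, Ldhb took 44.7% in young replicate 2 and 74.7% to 94.7% in the other 5.

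Of the 6 members of this step, 5 had fitted values above 0, with a median of 0.91. The 4 members other than Ldha and Ldhb had lower means over all libraries, up to 16.4 CPM for Pdk1, which reached 45.3 CPM in aged replicate 3. The monocarboxylate transporters Slc16a1 (MCT1) and Slc16a3 (MCT4), which carry lactate across the membrane, were at 0.179 to 12.2 CPM and at 0 to 2.09 CPM, too low for shares. Pdk1, which inhibits pyruvate dehydrogenase, averaged 8.83 ± 7.25 CPM at 2 months and 23.9 ± 19.3 CPM at 18 months (log2 fold change 1.43, SE 1.17). That value was 0.58 without aged replicate 3 and 2.37 without young replicate 2. Pdha1, a subunit of pyruvate dehydrogenase, ranged from 0.0353 to 15.8 CPM, both extremes in aged libraries. Summed over the 6 members of the step, the level was 163, 123 and 178 CPM at 2 months and 179, 437 and 329 CPM at 18 months. These sums did not overlap, although young replicate 3 and aged replicate 1 nearly met.

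**Figure D4:**
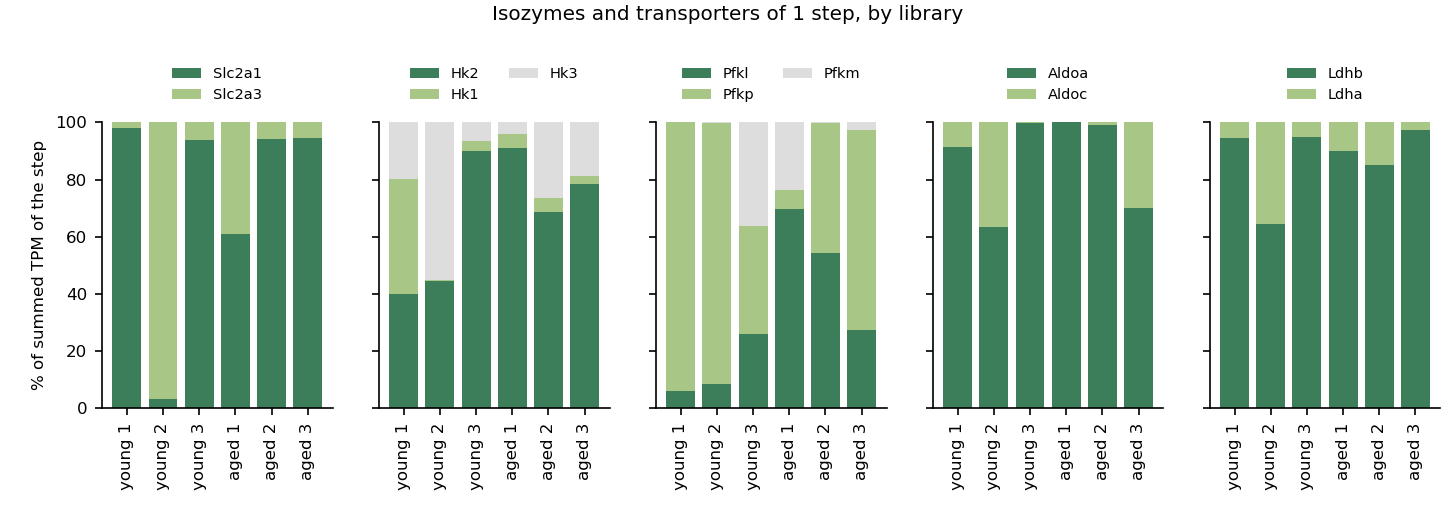
Share of the summed TPM of 1 step taken by each isozyme or transporter (y axis, percent) in each library (x axis), for glucose transporters, hexokinases, phosphofructokinases, aldolases and lactate dehydrogenases. Pfkl (dark green, middle panel) took 5.90% to 25.8% in the young and 27.2% to 69.6% in the aged libraries, and the dark green shares of the other 4 panels overlapped between the ages.

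In the pentose phosphate pathway, G6pdx and Pgd catalyse the 2 oxidative steps that make NADPH, and Tkt, Taldo1 and Rpia reshuffle the sugars. Taldo1, transaldolase, lies on chr7:141392199-141402968. It was at 65.3, 109 and 73.1 CPM at 2 months and at 116, 154 and 124 CPM at 18 months. Every aged value was above every young one, by a narrow margin between young replicate 2 and aged replicate 1. The averages were 82.6 ± 23.5 and 131 ± 19.8 CPM (SD, n = 3), and the log2 fold change was 0.67 (SE 0.39, edgeR adjusted p = 0.936).

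Of the 4 tested members of the pathway, 3 had fitted values above 0, with a median of 0.63. The oxidative enzymes gave no separation of the ages. G6pdx, glucose 6-phosphate dehydrogenase, ranged from 6.69 to 43.0 CPM at 2 months and from 4.63 to 84.4 CPM at 18 months, and its 2 lowest values came from replicate 3 of each age. Pgd ranged from 9.60 to 14.2 CPM in young and from 3.20 to 29.5 CPM in aged libraries. Tkt, transketolase, had a log2 fold change of -0.25 (SE 0.90). Rpia, the isomerase of ribose 5-phosphate, was at or below 0.695 CPM in 5 libraries and at 5.98 CPM in aged replicate 2. The summed level of the 5 members was 115 to 174 CPM at 2 months and 172 to 290 CPM at 18 months, which overlapped.

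Of the 4 hypoxia genes, 3 had fitted values above 0, with a median of 0.74. Their summed level was 45.2, 52.6 and 157 CPM at 2 months and 204, 147 and 147 CPM at 18 months, which overlapped through young replicate 3. Bnip3, a mitophagy receptor and HIF target, lies on chr7:138890836-138909519. It was at 14.5, 37.1 and 82.7 CPM at 2 months and at 113, 87.4 and 105 CPM at 18 months. The aged libraries lay close together (102 ± 13.0 CPM) and the young ones were spread over a 5.69-fold range, with young replicate 3 near the aged values. The log2 fold change was 1.18 (SE 0.62, edgeR adjusted p = 0.920), and it was 1.99 without young replicate 3 and 0.77 without young replicate 1.

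The other 3 hypoxia genes overlapped between the ages. Hif1a, the oxygen-regulated subunit of HIF, was at 15.4, 3.42 and 47.6 CPM at 2 months and at 65.3, 44.0 and 9.12 CPM at 18 months (log2 fold change 0.84, SE 1.06). Its value was 0.27 without aged replicate 1 and 2.07 without young replicate 3. Egln1, the prolyl hydroxylase that marks HIF for degradation, averaged 15.0 ± 9.69 and 23.2 ± 6.69 CPM (0.64, SE 0.96). Its log2 fold change was 1.31 without young replicate 3 and 0.35 without young replicate 1. Vegfa, a vascular growth factor and HIF target, was at or below 7.14 CPM in every library and had no count in aged replicates 1 and 2.

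Summed over all 33 members, the level was 1035, 1078 and 1190 CPM at 2 months and 1620, 2483 and 2120 CPM at 18 months. The aged libraries were thus all above the young ones. The sums of the 133 other pathway genes described below overlapped. They were 2904, 2646 and 2928 CPM at 2 months and 2902, 3943 and 3883 CPM at 18 months. How often sums over other sets of genes separate the ages was not counted, for all members or for single steps. Of the 33 members, 26 had their highest value in an aged library: 4 in aged replicate 1, 13 in aged replicate 2 and 9 in aged replicate 3. The same count was not made over all genes, so it cannot be read as a trait of the members. Aged replicate 2 also had the most genes with at least 5 counts (12543). Aged replicate 2 had the lowest summed border macrophage markers (8298 CPM) and the highest summed microglia markers (18432 CPM) of all libraries. Of the 12 microglia markers, 11 had fitted values above 0, and of the 12 border macrophage markers, 2 did. The part of these markers in the values of the 33 genes was not tested. Without aged replicate 2, the members had a median log2 fold change of 0.64 and Eno1 had one of 2.10. Aged replicates 1 and 3, kept in that fit, had microglia sums of 11084 and 14653 CPM, above every young library. Their border macrophage sums were below every young one, so that fit did not remove the difference in markers. The neutrophil and erythroid markers were at their lowest in aged replicate 3 (25.8 and 153 CPM), where Eno1 was at 247 CPM and the members summed to 2120 CPM. The part of the neutrophil and erythroid markers in these values was not tested either.

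**Figure D5:**
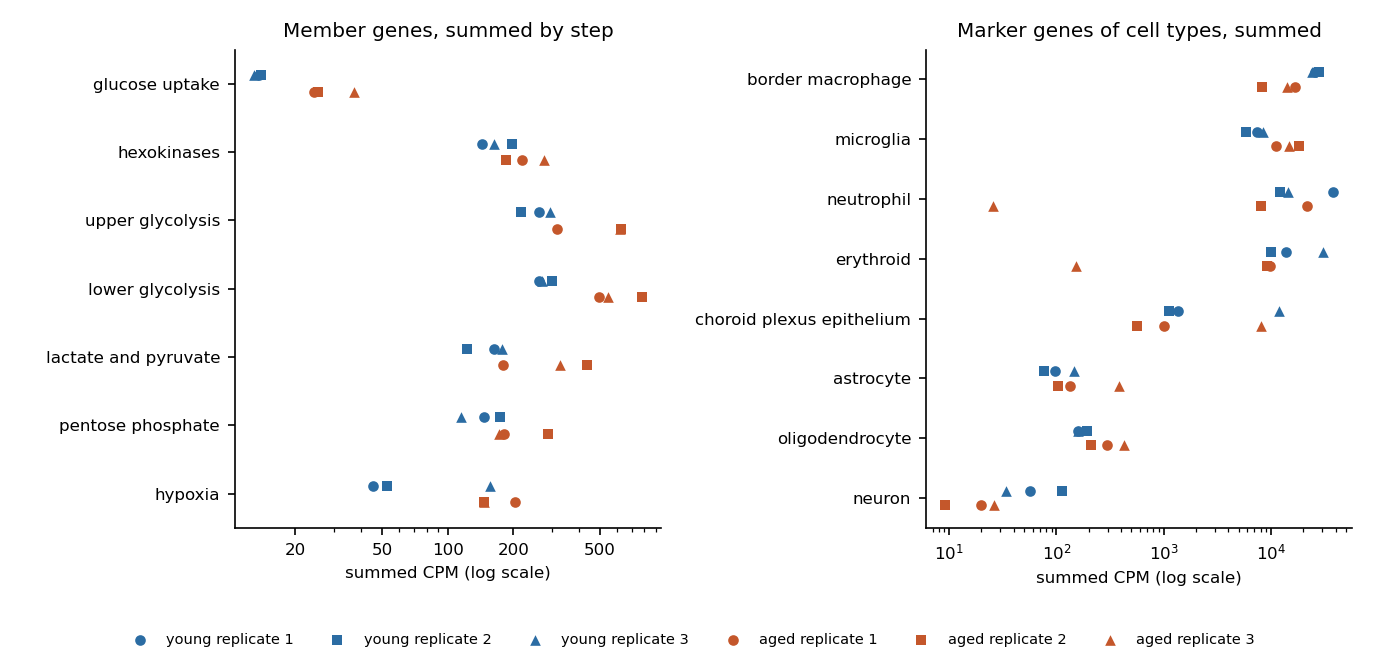
Left, summed CPM of the members of each step in each library on a log axis. Right, summed CPM of marker genes of 8 cell types on a log axis; blue symbols are young and orange symbols aged libraries, and the aged sums lie above all young sums for glucose uptake, upper glycolysis, lower glycolysis and lactate and pyruvate, and for microglia and oligodendrocyte markers, and below them for border macrophage, erythroid and neuron markers.

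A further 133 genes of the same and adjoining pathways were counted, of which 88 were tested. In edgeR's quasi-likelihood test with Benjamini-Hochberg adjustment 0 of the 88 passed. At an unadjusted p under 0.05, 4 were higher and 1 was lower in aged libraries. Of all 10661 tested genes, 387 were higher (3.63%) and 218 lower at that threshold. Of the 93 genes of the set to which the DESeq2 Wald test gave an adjusted p, it called 0 higher and 2 lower (Eno2 and Ppargc1a), against 1.52% of all genes called lower, a share near that of the set. limma-voom and limma on log2(TPM + 1) called 0. Fitted values were above 0 for 58 and below 0 for 30, with a median of 0.49. Of the 88, 9 had every aged library above every young one, against 7.54% of all tested genes. The opposite held for 4 of the 88, against 7.19% of all tested genes. By list, the median was 0.68 for 18 lactate and pyruvate genes, 0.64 for 23 hypoxia genes, 0.50 for 15 regulators of glucose use and growth, 0.35 for 8 pentose phosphate genes, -0.01 for 12 glycolysis and glucose transport genes and -0.33 for 12 glycogen genes. Of the 12 tested glycogen genes 5 lay above 0 and 7 below, and of the 23 tested hypoxia genes 18 lay above 0 and 5 below.

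Among these genes, those with no overlap, a mean of at least 10 CPM and the smallest p were as follows. P4hb, a subunit of collagen prolyl hydroxylase, was at 49.0, 36.1 and 72.6 CPM at 2 months and at 85.7, 245 and 114 CPM at 18 months (log2 fold change 1.50, SE 0.52, edgeR adjusted p = 0.709). Plin2, a lipid droplet coat protein, was at 30.8, 30.4 and 25.5 CPM and at 48.9, 71.3 and 150 CPM (1.64, SE 0.57, edgeR adjusted p = 0.725). Slc2a5, a fructose transporter, was at 24.7, 10.9 and 12.3 CPM and at 52.8, 108 and 30.8 CPM (2.00, SE 0.73, edgeR adjusted p = 0.753), with a log2 fold change of 1.40 without aged replicate 2. It is also one of the 12 microglia markers, whose sum was higher in the aged libraries.

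Prps1, which makes phosphoribosyl pyrophosphate from ribose 5-phosphate, was at 22.6, 11.6 and 9.09 CPM at 2 months and at 37.8, 36.3 and 86.8 CPM at 18 months (log2 fold change 1.89, SE 0.75, edgeR adjusted p = 0.797). Ugp2, which makes the UDP-glucose used for glycogen, went the other way, at 58.2, 109 and 76.9 CPM at 2 months and at 40.5, 31.9 and 43.1 CPM at 18 months (-1.08, SE 0.50, edgeR adjusted p = 0.892). None of these 5 genes passed.

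The most abundant gene of each list overlapped between the ages, Ugp2 apart. Mpc1, a mitochondrial pyruvate carrier, averaged 452 ± 91.7 CPM at 2 months and 484 ± 294 CPM at 18 months (SD, n = 3). Mif, a cytokine and HIF target, averaged 134 ± 29.8 and 143 ± 16.3 CPM. Txnip, which restrains glucose uptake, averaged 279 ± 53.6 and 393 ± 108 CPM (log2 fold change 0.49, SE 0.33). Bpgm, which makes 2,3-bisphosphoglycerate, and Pgls, the lactonase of the pentose phosphate pathway, had log2 fold changes of 0.79 (SE 1.41) and 0.66 (SE 1.03). The value of Bpgm was 1.62 without young replicate 3 and 0.21 without young replicate 2, and that of Pgls was -0.17 without aged replicate 2.

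Eno2, the neuronal enolase, had 151, 40 and 106 counts in the young libraries and 1, 0 and 0 in the aged ones, with an adjusted p of 0.619 in edgeR and 7.62e-05 in the DESeq2 Wald test. Summed neuron markers were likewise lower in every aged library, at 33.8 to 112 CPM at 2 months and at 9.17 to 26.1 CPM at 18 months, with all 9 tested markers below 0, and their part in the Eno2 value was not tested.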

How the data were processed

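RNA sequencing libraries of sorted CAMs (3 at 2 months, 3 at 18 months, grouped by their titles) were analysed from 1 deposited table each. Per the submitters' processing notes, the tools were bcl2fastq 2.20, FastQC, fastp, Picard and DRAGEN on mm10; what each did, and the annotation release, is not given in the sources used here. Per the file headers, each table held estimated counts per gene (not scaled to depth, 90.22% to 92.93% whole), TPM (the authors' scaling for depth and length) and another value, the gene length in bases. Of 35598 identifiers, 35513 matched GENCODE M21 with the version ignored.

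Estimated counts were rounded and tested with edgeR 4.0.16 in R 4.3.3 (filterByExpr by group, TMM, quasi-likelihood F test with robust dispersion, two-sided, Benjamini-Hochberg over 10661 genes, called at an adjusted p under 0.05). The SE was calculated back from each fold change and its F statistic. The scripts were tested on simulated data. Alternatives were DESeq2 1.42.0, limma 3.58.1 (voom; trend on log2(TPM + 1), mean TPM of at least 1), other scalings and filters, a replicate block and leaving out each library; the sum of Eno1 and Eno1b and shares per fixed length were added after the data were seen. Near copies were found with blastn 2.17.0 (at least 95% identity over 200 bases). The kit does not mark strand: Pfkp, Pfkm, Tpi1, Gapdh, G6pdx and Bnip3 overlap the gene body of a tested gene on the opposite strand, which had the higher mean only for Pfkm.

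The members, lists and naming rule were chosen with earlier results of these data known. Per-library values are given for members with no overlap between the ages and a mean of at least 10 CPM and for the most abundant member of each step by TPM; other pathway genes were named by the smallest p among those with no overlap and a mean of at least 10 CPM (up to 4 a direction), and by abundance. Pfkl (mean 9.35 CPM), Eno2, Ppargc1a and per-library values of other members were chosen after their values were seen. Replicate numbers were not treated as pairs: deviations of same-numbered libraries correlated at -0.0133, 0.0275 and 0.0788.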

Additional observations from a re-analysis of the deposited data

How the results depend on the processing

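The members' median stayed above 0 in all 15 alternatives. It was 0.96 at a mean of at least 50 CPM and ran from 0.64 (without aged replicate 2) to 0.88 (without young replicate 2) when 1 library was left out. Scaling by total counts gave 0.79; the median of all genes moved from -0.02 to 0.22 with limma on log2(TPM + 1), where the members' median was 0.79.

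Genes called higher were 270 by the DESeq2 Wald test, 0 by limma-voom, 2 by limma on TPM, 51 with no filter, 19 from 50 CPM and 0 to 2 with 1 library left out (0 without aged replicate 2 or 3). Genes called lower were 187, 11 and 6 by DESeq2, with no filter and from 50 CPM, and 0 to 1 with 1 library left out. Members called higher were 2, 1 and 1 in those 3 settings. With the replicate number as a block, which the correlations gave no ground to treat as a pairing, 1 gene was called higher, 0 members were called and the median was 0.73.

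Of the 32 tested members, 11 had a value in all 15 alternatives, and all 11 kept their sign. These were the members that averaged 50 CPM or more, since that filter was among the alternatives. Eno1, Gpi1, Pgk1 and Bnip3 passed it only through their aged libraries. A further 9 members kept their sign in the 13 or 14 alternatives that gave them a value, and 12 changed sign in some. None of the 12 was called, and the cause was not tested. With the DESeq2 Wald test and with no filter Slc2a3 was at 0.0122 and 0.0371. With voom Hk1 was at 0.34, Pfkp at -0.58, Slc16a1 at 1.47, Pdha1 at -0.90 and Mpc1 at -0.0708. On the TPM scale Hk1 was at 0.0077, Hk3 at 0.0777, G6pdx at -0.43 and Tkt at 0.14. With the replicate block Hk1 was at 0.35, Pfkp at -0.32, Aldoc at -1.80, Slc16a1 at 1.69, Pdha1 at -0.11 and Mpc1 at -0.0412. With 1 library left out, values ran from -1.97 to 2.17 for Slc2a3, -0.89 to 0.31 for Hk1, -0.96 to 1.02 for Pfkp, -0.15 to 5.17 for Pfkm, -1.80 to 3.45 for Aldoc, -0.49 to 1.21 for Ldha, -1.47 to 4.02 for Slc16a1, -0.48 to 0.82 for Pdha1, -0.50 to 1.13 for G6pdx, -0.59 to 0.24 for Tkt and -9.49 to 1.01 for Vegfa. Among other genes they ran from -0.52 to 0.35 for Mpc1, -0.17 to 1.08 for Pgls and -0.0650 to 0.26 for Mif. By counts in place of TPM, the aged Ldhb share was 83.0%.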
